A study of Mus musculus with 8 samples.

Results

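Iron and heme handling was examined through 10 genes in RNA-seq of peritoneal exudate leukocytes, chosen by name out of the 49671 genes of the deposited tables. They are Fth1 and Ftl1 (ferritin heavy and light chain), Ncoa4 (ferritin turnover), Hmox1, Blvra and Blvrb (heme breakdown), Spic (a transcription factor), and the transporters or receptors Slc40a1, Slc11a1 and Tfrc. The samples were 8 male wild-type C57BL/6 mice, 6 to 8 weeks old, and every mouse received zymosan A (1 mg, intraperitoneally) on day 12. In 4 mice 5 specialized pro-resolving mediators (SPMs) were injected together, 0.1 ng of each, namely the resolvins RvE2, RvD1, RvD2 and RvD5 and the maresin MaR1. Injections began on day 0, followed on day 2, day 5, day 7 and day 9, and the last accompanied zymosan, while 4 mice received vehicle (0.01% ethanol in 1 mL of saline) at these times. Exudates were taken at 12 h, and the RNA came from mixed leukocytes, so that each value is a sum over several cell types. The 10 genes were proposed with differences between these groups of mice already known, and their differences between SPM and vehicle mice are therefore given as a description, with no test read from them.

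Phagocytes that engulf dying cells and red cells take heme apart. Heme oxygenase 1, the product of Hmox1, opens the heme ring to release iron, carbon monoxide and biliverdin. Biliverdin reductase A, the product of Blvra, reduces this biliverdin to bilirubin. The iron is stored in ferritin, a shell of heavy and light chains, or leaves the cell through ferroportin, encoded by Slc40a1. When iron is scarce, iron regulatory proteins bind hairpins called iron-responsive elements in messenger RNA, which blocks translation of ferritin and ferroportin and protects the message of the transferrin receptor, the importer of transferrin-bound iron.

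The iron-responsive element is the sequence that ties the storage, export and import genes to each other, and so its matches are shown here. GENCODE M21 transcripts (GRCm38) were searched on the transcript strand for a C, 5 bases, the loop CAGTGN and 5 bases that pair with those before the loop, G-U pairs allowed. Matches were found in 4 of the 10 genes, 7 in all. Fth1 has its match in the 5′ UTR at chr19:9982732-9982760 on the plus strand, and Ftl1 has its match in the 5′ UTR at chr7:45459779-45459807 on the minus strand. Slc40a1 has its match in the 5′ UTR at chr1:45925465-45925493 on the minus strand. The 4 matches of Tfrc all lie in its 3′ UTR on the plus strand, within a stretch of 520 bases, at chr16:32631219-32631247, chr16:32631598-32631626, chr16:32631663-32631691 and chr16:32631710-32631738. Each is printed 5′ to 3′ in 29 bases, with capitals for the bulged C and for the loop.
Fth1: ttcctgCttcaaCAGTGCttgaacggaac
Ftl1: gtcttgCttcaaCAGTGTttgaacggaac
Slc40a1: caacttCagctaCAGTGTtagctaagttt
Tfrc at 32631219: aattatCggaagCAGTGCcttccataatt
Tfrc at 32631598: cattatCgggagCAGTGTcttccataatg
Tfrc at 32631663: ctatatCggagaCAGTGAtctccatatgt
Tfrc at 32631710: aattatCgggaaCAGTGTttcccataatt
The ferritin sites share 26 of 29 bases. Of 21866 protein-coding genes, 294 (1.34%) held such a match anywhere in a transcript, 31 (0.142%) in a 5′ UTR, 129 (0.59%) in a 3′ UTR and 140 (0.64%) in a coding part. Of the 76 other iron and heme genes listed for this report, a match was found in 2, Alas2 in its 5′ UTR and Keap1 in its coding part. No match was found in Hmox1, Blvra, Blvrb, Slc11a1, Spic or Ncoa4, which says only that these letters were not found in the transcripts searched. With 1 mismatch allowed in the stem, a coding match in Slc11a1 was added, 13 of the 76 other genes held a match, and the share of all genes became 10.7%.

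The reads assigned to genes numbered 15154054 to 20836489 in SPM mice and 20170355 to 21114301 in vehicle mice. Each mouse was sequenced as 1 library and the mice are separate animals, so that each SD below is the spread between mice. Each SE is that of a log2 fold change and was derived from the edgeR fit. All 10 genes passed the minimum of 10 counts over the 8 mice, as did 21423 of all genes. Counting error was small except for Spic, whose 29 to 109 reads per mouse carry a counting error of 18.6% at the lowest and 9.58% at the highest count. Markers of leukocytes were present as the label of mixed leukocytes states. The neutrophil list was led by S100a9, with a mean of 7684 CPM (counts scaled to a common library size). No leukocyte marker found in the tables was at 0 counts, and Siglecf of the eosinophil list was not found by that symbol.

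The levels of these genes covered about 4 orders of magnitude, and storage stood at the top. Levels of different genes are set side by side in TPM, which is scaled for gene length, over all 8 mice. Fth1 was at 27584 ± 3668 TPM (SD, n = 8) and ranked 2 among all genes in every mouse. Ftl1 was at 12068 ± 1308 TPM and ranked 4 in every mouse. The pair took up between 1.16% and 1.71% of all reads counted on genes.

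Hmox1 followed at 1240 ± 156 TPM, with a rank between 67 and 119. Slc11a1, which encodes NRAMP1, a metal exporter of the phagosome membrane, was at 677 ± 45.9 TPM. C57BL/6 mice carry an allele of Slc11a1 that impairs its protein, which the messenger RNA level does not show. Slc40a1 was at 78.8 ± 11.9 TPM and Blvrb at 55.3 ± 9.19 TPM. Blvra was at 32.2 ± 4.81 TPM, Ncoa4 at 30.6 ± 3.62 TPM and Tfrc at 21.5 ± 3.78 TPM. Spic, which drives the red pulp macrophage program and its iron genes, was lowest at 2.05 ± 0.741 TPM.

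**Figure D1:**
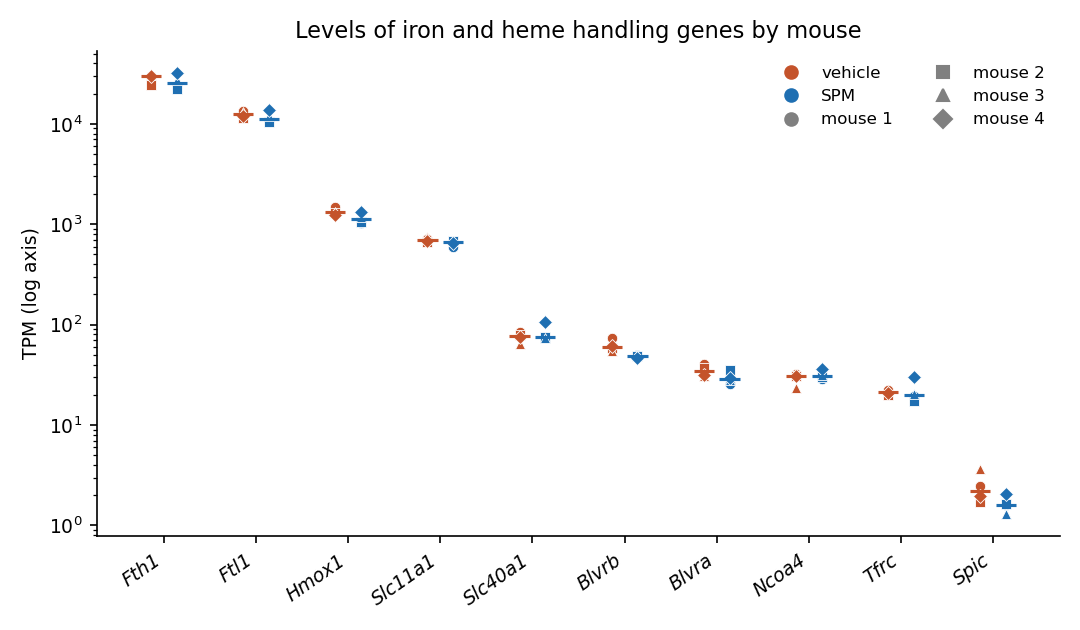
TPM (log axis) of the 10 genes in each mouse, ordered by mean level, with vehicle mice in orange, SPM mice in blue, a symbol for each mouse number and a line at the median of each group. Fth1 and Ftl1 lie between 10343 and 32225 TPM, and Spic lies between 1.29 and 3.66 TPM.

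The order was the same in every mouse for 8 of the 9 neighbouring pairs. The exception was Blvra and Ncoa4, where Blvra was the higher in 5 of 8 mice, 4 of 4 vehicle mice and 1 of 4 SPM mice. In vehicle mice Blvra was at 34.9 ± 4.43 TPM and Ncoa4 at 29.4 ± 3.97 TPM (SD, n = 4), and in SPM mice they were at 29.5 ± 3.88 TPM and 31.7 ± 3.39 TPM (SD, n = 4). Over the 8 mice the pair did not differ beyond its spread. The ranges over mice also overlapped for Slc40a1 and Blvrb and for Ncoa4 and Tfrc, although the first of each pair was higher within all 8 mice. Within a mouse, Fth1 was 2.13 to 2.51 times as high as Ftl1 in TPM, with a ratio of 2.27 ± 0.0856 (SD, n = 4) in SPM mice and 2.29 ± 0.164 (SD, n = 4) in vehicle mice. Slc40a1 was 2.97 to 4.38 times as high as Tfrc, so the messenger RNA of the exporter exceeded that of the importer in every mouse. Hmox1 was 19.8 to 29.02 times as high as Blvrb, and Blvrb was 1.39 to 1.94 times as high as Blvra.

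Hmox1, Blvra and Blvrb, the members in heme breakdown, were lower on average in SPM mice than in vehicle mice. Blvrb was the only member whose groups did not overlap. Values per mouse in this and the next paragraphs are TMM-normalized CPM, which compare mice for a single gene. Blvrb, biliverdin reductase B (chr7:27447978-27466144, plus strand), read 46.6, 47.3, 49.9 and 43.7 CPM in the SPM group (mouse 1 to mouse 4, the order used throughout) and 71.7, 55.3, 59.9 and 60.9 CPM in the vehicle group. Every SPM mouse was below every vehicle mouse, and vehicle mouse 1 was the highest of all. A separation in this direction was found for 2.37% of the 21423 genes tested, and the opposite one, which no member showed, for 1.46%. The log2 fold change of Blvrb was -0.40 (SE 0.0981), and it was between -0.44 and -0.32 with any 1 mouse left out.

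Hmox1 (chr8:75093621-75100589, plus strand) was at 605, 643, 744 and 798 CPM in SPM mice and at 909.6, 777, 911 and 759.7 CPM in vehicle mice. SPM mice 1, 2 and 3 were below all vehicle mice, while SPM mouse 4 was above vehicle mice 2 and 4. The log2 fold change was -0.27 (SE 0.116). Blvra, biliverdin reductase A (chr2:127070665-127097084, plus strand), was at 21.4, 30.02, 24.6 and 24.3 CPM in SPM mice and at 34.4, 30.5, 29.8 and 27.5 CPM in vehicle mice. Its groups overlapped through SPM mouse 2 alone, and the log2 fold change was -0.28 (SE 0.118).

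Spic (chr10:88674772-88685015, minus strand) was at 2.09, 2.19, 1.78 and 2.71 CPM in SPM mice and at 3.34, 2.24, 5.56 and 2.64 CPM in vehicle mice, which is 45, 40, 29 and 42 reads against 70, 48, 109 and 54 reads. Vehicle mouse 3 stood highest, and SPM mouse 4 lay above vehicle mice 2 and 4. The log2 fold change was -0.65 (SE 0.279), and it was -0.32 without vehicle mouse 3. The spread of Spic among vehicle mice, an SD of 0.554 on the log2 scale, was at the 94.9th percentile of all genes of at least 1 CPM.

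**Figure D2:**
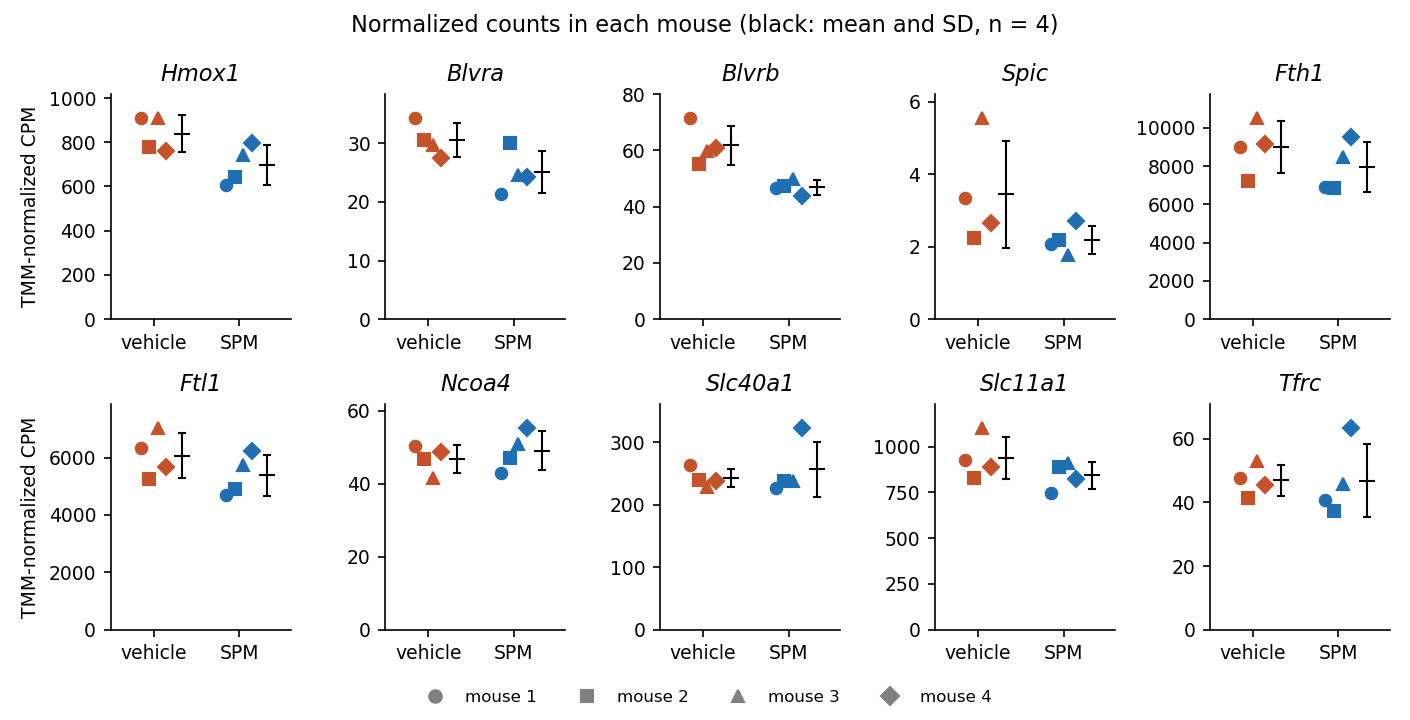
TMM-normalized CPM of each gene in each mouse, on linear axes that start at 0, with a symbol for each mouse number and the mean and SD (n = 4) of each group in black. The groups separate for Blvrb, at 43.7 to 49.9 CPM in SPM mice and 55.3 to 71.7 CPM in vehicle mice, and overlap for the other 9 genes.

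The ferritin chains varied together from mouse to mouse, and their groups overlapped. Fth1, the chain with ferroxidase activity (chr19:9982703-9985092, plus strand), was at 6908, 6834, 8492 and 9519 CPM in SPM mice and at 9029, 7215, 10536 and 9181 CPM in vehicle mice. Ftl1, the light chain (chr7:45457944-45459884, minus strand), was at 4694, 4894, 5737 and 6219.7 CPM in SPM mice and at 6331, 5247, 7024 and 5669 CPM in vehicle mice. Both chains were low in SPM mice 1 and 2 and in vehicle mouse 2, and highest in vehicle mouse 3. The log2 fold change was -0.18 (SE 0.154) for Fth1 and -0.17 (SE 0.137) for Ftl1, and both were -0.092 without vehicle mouse 3.

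Ncoa4, the receptor that delivers ferritin to the lysosome (chr14:32159865-32179855, plus strand), was at 42.9, 47.1, 50.9 and 55.2 CPM in SPM mice and at 50.3, 46.7, 41.6 and 48.7 CPM in vehicle mice. Its highest value was in SPM mouse 4 and its lowest in vehicle mouse 3, the mouse in which the ferritins were highest. The log2 fold change was 0.065 (SE 0.102), and it was 0.014 without vehicle mouse 3 and 0.13 without SPM mouse 1.

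Ferritin has near-identical copies in the genome that could share its reads. The pseudogene Ftl1-ps1 was counted at a mean of 22.2 CPM, 0.386% of the reads of Ftl1, and Ftl2 at 1.10 CPM. The 9 genes and pseudogenes of the Fthl17 family had 0 counts. The exons of Ftl1 also overlap Gm22133 on the same strand and Gm10252 on the other strand in GENCODE M21, so the level of Ftl1 is uncertain by reads these could share. Adding the counts of the ferritin pseudogenes to their parent genes left the direction of the difference as it was for both chains.

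The transporters overlapped between the groups. Slc40a1 (chr1:45908068-45926523, minus strand) was at 228, 238, 239 and 323 CPM in SPM mice and at 263, 240.1, 229 and 238 CPM in vehicle mice. SPM mouse 4 stood above the other 7 mice, and the log2 fold change was 0.082 (SE 0.116) with it and -0.033 without it. Tfrc, the transferrin receptor (chr16:32608920-32632794, plus strand), was at 40.9, 37.3, 45.7 and 63.4 CPM in SPM mice and at 47.8, 41.5, 53.1 and 45.6 CPM in vehicle mice. SPM mouse 4 was again the highest, and the log2 fold change of -0.0072 (SE 0.148) became -0.17 without it. Slc11a1 (chr1:74375195-74386062, plus strand) was at 748, 888, 911 and 821 CPM in SPM mice and at 929, 829, 1100.2 and 889.6 CPM in vehicle mice. SPM mouse 1 was lowest and vehicle mouse 3 highest, and the log2 fold change was -0.15 (SE 0.114), or -0.065 without vehicle mouse 3.

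**Figure D3:**
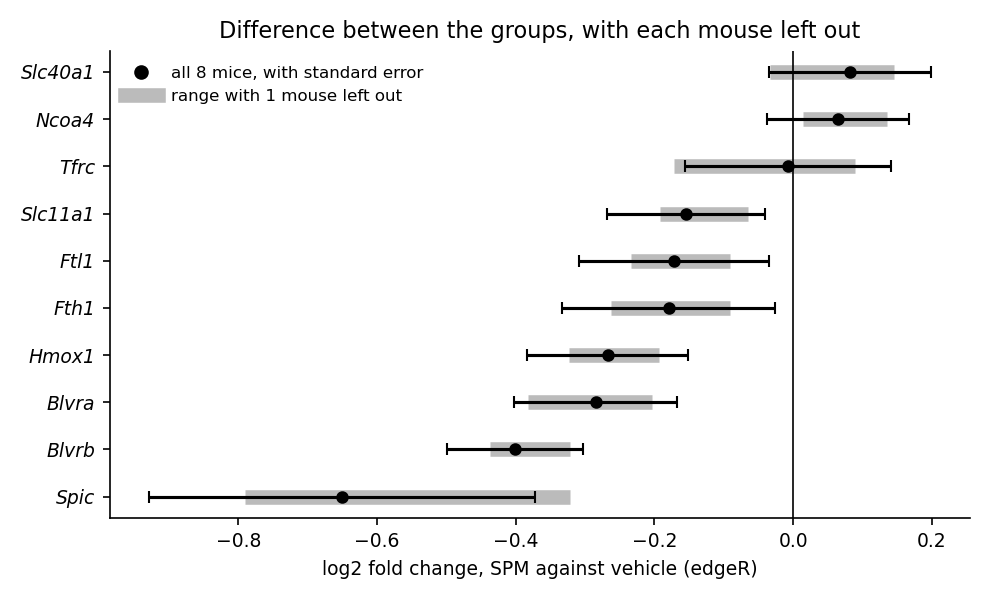
Log2 fold change of SPM against vehicle mice from edgeR for the 10 genes, with black bars for the standard error and grey bands for the range of values with any 1 of the 8 mice left out. The bands of Slc40a1 and Tfrc cross 0, that of Blvrb runs from -0.44 to -0.32 and that of Spic from -0.79 to -0.32.

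Over the 10 genes, 8 had a negative log2 fold change, with a median of -0.18, where 52.8% of all 21423 genes were negative and the median was -0.017. An unadjusted p under 0.05 in the direction of lower after SPM was given by edgeR's quasi-likelihood test to 4 of the 10 (Hmox1, Blvra, Blvrb and Spic) and to 3.59% of all genes, and in the other direction to 0 of the 10 and 2.49% of all genes. Of the 10 genes, 9 had a mean of at least 10 CPM, and 5.42% of all genes at that level were lower at this p. The count of 4 was 1 with limma on log2(TPM + 1), and 1 without SPM mouse 1 or vehicle mouse 1. The genes were chosen with this contrast known, so nothing is read from these counts. After Benjamini-Hochberg adjustment over all genes, edgeR called 0 of the 10 and 0% of the 21423 genes. The adjusted p was 0.790 for each of Hmox1, Blvra, Blvrb and Spic. At an unadjusted p under 0.05, edgeR gave 1303 genes (6.08%), DESeq2 1087 genes and limma on log2(TPM + 1) 1194 genes, and the last 2 also gave 0 after adjustment.

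The mice of each group also differed among themselves. Against the mean of the vehicle mice, the median of the 10 genes on the log2 CPM scale was -0.36, -0.31, -0.071 and -0.012 in the SPM mice, in order of number. The same median was 0.089, -0.16, 0.15 and -0.053 in the vehicle mice. Of the 10 genes, 10, 9, 9 and 5 were below the vehicle mean in SPM mice 1 to 4, and 1, 9, 4 and 8 in vehicle mice 1 to 4. SPM mouse 4 was the highest SPM mouse for Fth1, Ftl1, Hmox1, Slc40a1, Tfrc, Spic and Ncoa4, yet the lowest of all mice for Blvrb.

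**Figure D4:**
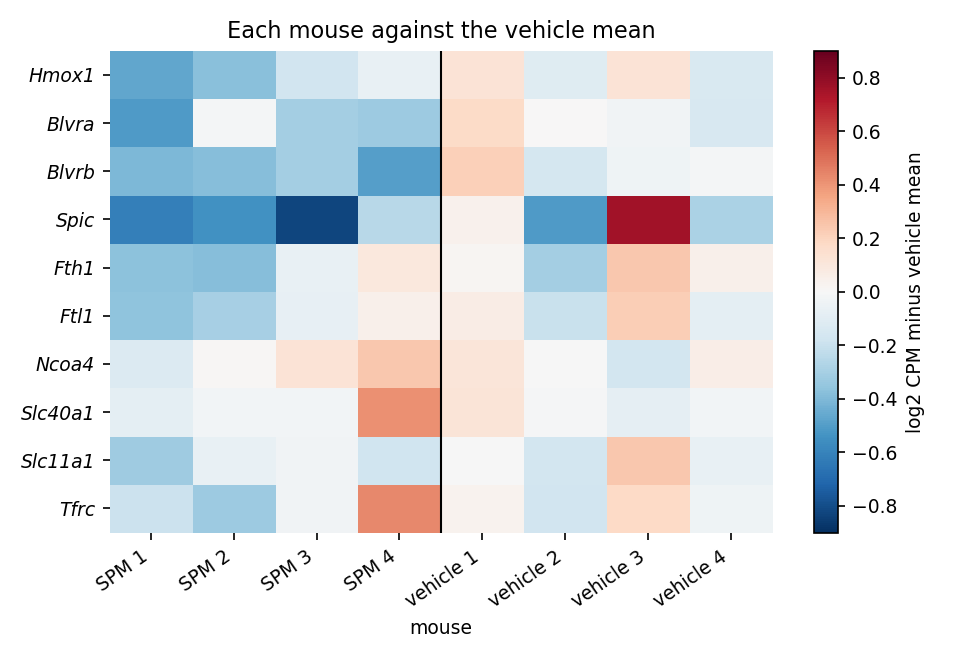
Log2 CPM of each gene (rows) in each mouse (columns) minus the mean of the vehicle mice, blue for lower and red for higher, with a line between the groups. Hmox1, Blvra, Blvrb, Slc11a1 and Spic, 5 of the 10, are below the vehicle mean in all 4 SPM mice, while Slc40a1 and Tfrc are red in SPM mouse 4, at 0.41 and 0.44.

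The genes that followed each other most closely over the 8 mice were those of storage and heme opening. Likeness was measured as the root mean square difference of log2 CPM after each gene was centred on its own mean, over the 45 pairs of members. Fth1 and Ftl1 were closest at 0.0711, Ftl1 and Hmox1 came next at 0.0736, and Slc40a1 and Ncoa4 followed at 0.0932. Blvra and Blvrb were 0.154 apart. Spic was 0.337 to 0.520 from the other 9 genes. This distance grows with a gene's own spread over the mice, which was 0.463 for Spic, the gene with the fewest reads, and 0.124 to 0.225 for the others.

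Among the 9595 genes with a mean of at least 5 CPM, members left out, the 3 nearest to Ftl1 were Slc48a1, which encodes the lysosomal heme transporter HRG1, at 0.0422, the transcription factor gene Mafg at 0.0571, and Klhdc4 at 0.0581, where the median over all these genes was 0.246. The nearest to Hmox1 were Slc48a1 at 0.0680, Fam76a at 0.0706 and Mafg at 0.0725. The nearest to Fth1 were the pseudogene Ftl1-ps1 at 0.0642, Smim4 at 0.0793 and Sqstm1, an autophagy receptor gene, at 0.0837. The nearest to Spic, the member with the widest spread, were the acute-phase gene Saa3 at 0.193, the fatty acid binding protein gene Fabp4 at 0.202 and Rnd3 at 0.219. These distances describe 8 mice that differed in depth and in cell markers, and the 4 members whose nearest genes are given were picked after the values were seen.

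Sums of marker genes of several cell types also differed between mice. In RNA of mixed cells, fewer cells of a type and less RNA per cell cannot be told apart. The summed level of the 7 monocyte markers was 2454 to 2878 CPM in SPM mice and 2839 to 3099.6 CPM in vehicle mice. The 11 markers of resident peritoneal macrophages summed to 611 to 966 CPM against 767 to 989 CPM, and the 7 of red-pulp-like macrophages to 407 to 537 CPM against 497 to 614 CPM. The last sum was mostly Cd68, with a mean of 388 CPM, and says little of the rest of its list, whose genes went both ways. The 11 neutrophil markers summed to 16614 to 24467 CPM in SPM mice and 12438 to 23313 CPM in vehicle mice. S100a9 and S100a8 were the highest of that list in every mouse. All of these ranges of sums overlap, and so did single markers except Csf3r, F13a1 and Elane. Neutrophil Csf3r was at 1762 to 2180 CPM in SPM mice and 1530 to 1734 CPM in vehicle mice. Monocyte F13a1 was at 453 to 549.4 CPM against 549.8 to 702 CPM, and neutrophil Elane at 0.129 to 0.219 CPM against 0.334 to 0.816 CPM. All markers of these 4 lists had at least 10 counts, and the part of these cell types in the levels of Hmox1, Blvra, Blvrb and Spic was not tested.

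Erythroid markers, as a source of heme, were at 57.5, 127, 42.3 and 37.0 CPM in SPM mice and at 146, 61.1, 109.6 and 71.1 CPM in vehicle mice, summed over 11 genes of which 9 had at least 10 counts. The beta-globin gene Hbb-bs made up the most, with a mean of 38.6 CPM. The sum was highest in vehicle mouse 1, as were Blvra and Blvrb, and lowest in SPM mouse 4, as was Blvrb, while Blvra was lowest in SPM mouse 1. SPM mouse 2 came next to the highest for the sum and was the highest SPM mouse for Blvra, at 30.02 CPM. For Blvrb it was below every vehicle mouse, as was every SPM mouse. The part of the erythroid RNA in these levels was not tested.

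The rest of the pathway was followed through 76 other genes in 5 roles, of which 73 were tested and 3 (Cybrd1, Slc30a10 and Ftmt) had under 10 counts. After adjustment 0 of the 73 passed the test, with an adjusted p of 0.790 to 0.999 (edgeR). By sign, 22 were higher and 51 (69.9%) lower in SPM mice, with a median log2 fold change of -0.086, where 52.8% of all genes tested were lower and their median was -0.017. The counts by role below are read beside the same 52.8%. At an unadjusted p under 0.05, 4 of the 73 (5.48%) were lower and 0 were higher, where 3.59% of all genes were lower and 2.49% higher at that p. Among genes with a mean of at least 10 CPM, 5.42% were lower, near the share of the list. DESeq2 and limma gave 2 that were lower, and DESeq2 gave 1 that was higher.

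In uptake, recycling and transport, 9 of 30 genes were higher and 21 lower. The most abundant were Lcn2 (lipocalin 2, which binds bacterial siderophores) at 3316 TPM, Hp (haptoglobin, which binds free hemoglobin) at 1961 TPM and Pcbp1, an iron chaperone that loads ferritin, at 384 TPM. Pcbp1 was at 234, 251.62, 206 and 203 CPM in SPM mice and at 261, 276, 307 and 251.67 CPM in vehicle mice. Every SPM mouse was below every vehicle mouse, although SPM mouse 2 and vehicle mouse 4 nearly coincided, and the log2 fold change was -0.29 (SE 0.103, unadjusted p = 0.0141, under 0.05 in 18 of 18 alternatives, adjusted p = 0.790, edgeR). Lcn2 and Hp were highest in vehicle mouse 3, at 5801 and 1836 CPM, and their log2 fold changes of -0.086 and -0.091 became 0.37 and 0.22 without it. Abcg2, an exporter of heme and other substrates named for its separation, was the other gene of the list with every SPM mouse below every vehicle mouse. These 2 are 2.74% of the 73, near the 2.37% of all genes, and 3.38% of the 8046 genes with a mean of at least 10 CPM separated this way.

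Among the iron regulatory proteins and their control, 5 of 10 genes were higher and 5 lower. Fbxl5, the iron sensor that marks iron regulatory protein 2 for decay, was at 233 TPM, and Ireb2, which encodes that protein, at 26.3 TPM. Smad4, a mediator of the signal to hepcidin, was at 54.2 TPM. Bola2, a chaperone of iron-sulphur clusters, had a log2 fold change of -0.35 (unadjusted p = 0.0253, under 0.05 in 12 of 18 alternatives). Its values were 25.1, 25.8, 17.9 and 19.0 CPM in SPM mice and 27.6, 26.0, 33.6 and 25.3 CPM in vehicle mice, and SPM mouse 2 was the overlap.

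In heme synthesis, 2 of 12 genes were higher and 10 lower. The most abundant were Tmem14c, which moves porphyrin into the mitochondrion, at 188 TPM, Alas1, the first enzyme of the pathway outside erythroid cells, at 134 TPM, and Ppox at 19.3 TPM.

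In heme breakdown and its transcriptional control, 3 of 12 genes were higher and 9 lower, and 0 passed at an unadjusted p under 0.05. The most abundant were Tspo, a porphyrin-binding protein of the outer mitochondrial membrane, at 949 TPM, Por, the reductase that supplies electrons to heme oxygenase, at 382 TPM, and Nfe2l2, the transcription factor NRF2, at 369 TPM. In iron-sulphur cluster assembly, 3 of 9 genes were higher and 6 lower, led by the scaffold gene Iscu at 57.1 TPM, the glutaredoxin gene Glrx5 at 54.4 TPM and the co-chaperone gene Hscb at 18.4 TPM. Glrx5 had a log2 fold change of -0.29 (unadjusted p = 0.0417, under 0.05 in 7 of 18 alternatives), with 14.3 to 18.2 CPM in SPM mice and 17.5 to 24.1 CPM in vehicle mice.

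**Figure D5:**
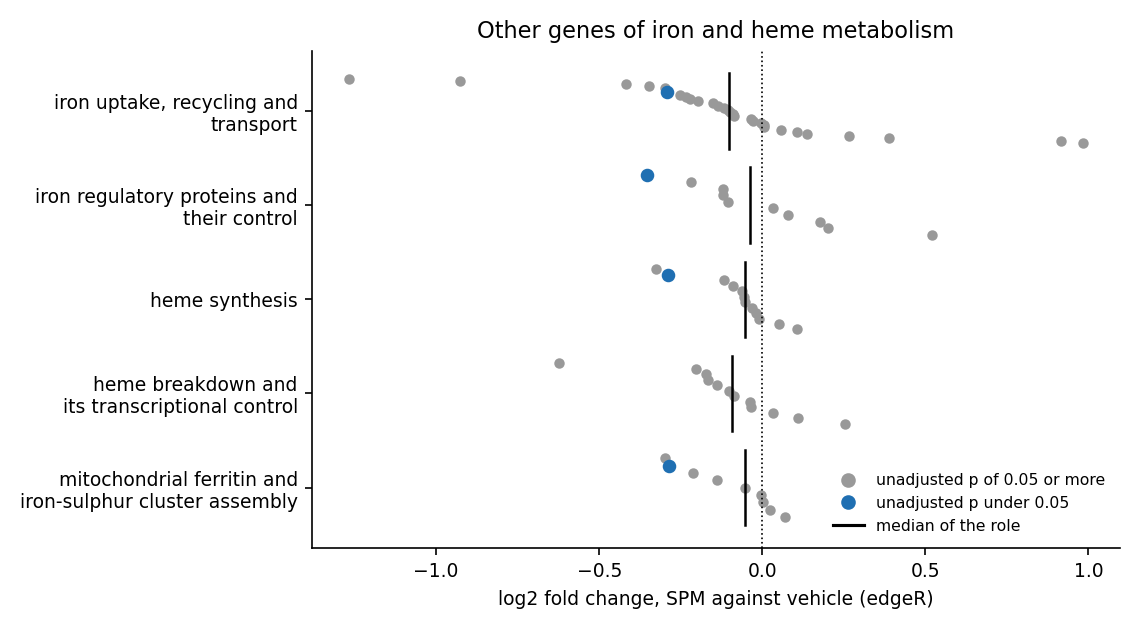
Log2 fold change of SPM against vehicle mice (edgeR) of the 73 other genes of iron and heme metabolism, 1 point a gene, in rows by role, with a black line at the median of each role and blue points at an unadjusted p under 0.05. The 4 blue points, Pcbp1, Bola2 and Glrx5 among them, lie between -0.35 and -0.29.

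The promoters were searched for motifs of factors known from heme and iron genes. RefSeq promoters (GRCm38.p6), from 250 bases before the start to 50 after it, were matched by symbol for 8 of the 10 genes, with 13 promoters, since Hmox1 and Slc40a1 had no entry. The antioxidant response motif TGACNNNGC was found on either strand in 2 of them, Blvra on the strand opposite the gene, at -49 from the start, and Ncoa4 on the gene strand, at -44, and in 12.4% of all 32851 promoters. The Ncoa4 promoter (chr14:32165539-32165838) lies inside the gene span given above, so its -44 is counted from an internal start. The E-box CACGTG was found in 0 of the 13 and 7.15% of all promoters, and the PU.1-type motif GAGGAAGT in 0 of the 13 and 3.2% of all promoters. A match is a description of letters and not a site, and no match speaks only for these windows.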

How the data were processed

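RNA-seq of exudate leukocytes from 8 mice, 4 per group, was analysed. The authors trimmed reads with Trimmomatic 0.36, aligned them with STAR 2.5.2b to GRCm38 plus ERCC spike-ins, and counted unique exon reads with featureCounts (Subread 1.5.2). The submitters' processing notes list GRCm39 beside GRCm38, and the coordinates in the files were those of GRCm38. The strand setting was not given in the sources used here. The deposited raw counts per gene were not normalized. The deposited TPM values are those counts corrected for gene length and library total, as recomputed here within 5e-05.

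Counts were tested with edgeR 4.0.16 (R 4.3.3): the quasi-likelihood F test, TMM scaling, genes with at least 10 counts, no covariate, Benjamini-Hochberg adjustment over 21423 genes at 0.05. Spike-ins (92 rows) were left out. Log2 CPM had a prior count of 2. Standard errors were derived from the fold change and F statistic. Alternatives were DESeq2 1.42.0 on every gene with a count, limma 3.58.1 on log2(TPM + 1), other scalings and filters, a block on mouse number, the omission of each mouse, and ferritin pseudogenes added. All 28 pairs of mice differed beyond counting error (chi-square of 7.58 or more per gene). On simulated data for SPM against vehicle, edgeR, on 20800 genes, recovered 82 of 100 genes changed by 1 and 98 of 100 changed by 2 on the log2 scale, with 11 false calls.

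The members and all gene lists were chosen with earlier results of these data known. Named beside the members were the 3 genes of each role with the highest TPM, those of the list with an unadjusted p under 0.05, ferritin copies of at least 1 CPM, the 3 nearest genes of 4 members, and the leading marker of lists. 1 gene that this rule names is not reported here. Genes most alike were sought among genes of at least 5 CPM. The depth of 15154054 to 21114301 reads sets a counting error, which covers counting only.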

Additional observations from a re-analysis of the deposited data

Results flagged for a closer look

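In 92 groups of 4 mice checked for a mouse far from the other 3, 7 had one, where chance alone gives one with a probability of about 0.05 per group. Slc40a1 in SPM mouse 4 was at 323 CPM, with the other SPM mice at 228 to 239 CPM. The TPM ratio of Hmox1 to Spic in SPM mouse 3 was 915, with the others at 636 to 645. Nfe2l2 in SPM mouse 1 was at 383 CPM, with the others at 511 to 531 CPM. Tspo in SPM mouse 4 was at 277 CPM, with the others at 358 to 367 CPM. The summed T cell markers in SPM mouse 1 were at 57.1 CPM, with the others at 19.6 to 25.4 CPM. Hscb in vehicle mouse 2 was at 4.86 CPM, with the others at 6.11 to 6.29 CPM. Iscu in vehicle mouse 3 was at 64.3 CPM, with the others at 39.9 to 43.2 CPM.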

How the results depend on the processing

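Blvrb was lower in SPM mice with an unadjusted p under 0.05 in 18 of 18 alternatives (adjusted p 0.106 to 0.945, edgeR, DESeq2 or limma), Blvra in 10, Hmox1 in 9 and Spic in 9. In no alternative did the direction of these 4 genes, of Fth1, Ftl1, Slc11a1 or Ncoa4 turn. The alternatives refit the same mice whose differences were known when the members were chosen, so nothing is read from these counts. The count of members that were lower was 1 with each of 3 limma settings and 1 to 4 with 1 mouse left out, being 1 without SPM mouse 1 or vehicle mouse 1, and 2 without SPM mouse 2, SPM mouse 3 or vehicle mouse 3. With genes of at least 1 count kept, edgeR called 160 genes after adjustment, none of them a member, and 2347 before it. Limma with a minimum mean of 1 TPM gave 799 before adjustment, and leaving out 1 mouse gave 816 (without vehicle mouse 1) to 1584. Of the other iron and heme genes, 2 were lower with RLE size factors, library size alone, filterByExpr, DESeq2 and the limma settings. With at least 1 count 6 were lower, and 3 to 7 with 1 mouse left out, 7 without SPM mouse 2. Higher were 1 with RLE size factors, library size alone, filterByExpr and DESeq2, 2 with at least 1 count, and 0 to 1 with 1 mouse left out. The cause of these shifts was not tested.

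The log2 fold change of Tfrc turned to 0.012 with RLE size factors, 0.010 with library size alone, 0.0064 with filterByExpr, 0.013 with DESeq2 and 0.018 with each limma setting, and ran from -0.17 to 0.089 with 1 mouse left out. Slc40a1 ran from -0.033 to 0.15 with 1 mouse left out. Hscb turned to 0.016 with RLE size factors, 0.012 with library size alone, 0.010 with filterByExpr, 0.0018 with at least 1 count, 0.014 with DESeq2, 0.040 with limma and 0.041 with a pseudocount of 0.1. With limma, Alas1 turned to 0.030, Hp to 0.020, Lcn2 to 0.078 and Nfe2l2 to 0.0011.
With 1 mouse left out, Hscb ran from -0.069 to 0.082, Lcn2 from -0.26 to 0.37, Hp from -0.21 to 0.22, Alas1 from -0.088 to 0.092, Nfe2l2 from -0.079 to 0.074, Smad4 from -0.014 to 0.071 and Tspo from -0.14 to 0.00015.

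The mouse numbers are shared by the groups, but the labels do not say that they pair animals. The correlations of same-numbered mice were -0.066, 0.128, 0.186 and -0.0060, and the best match had the same number for SPM mice 2 and 3 only. With the replicate block on mouse number, 3 members were lower, 1333 genes had an unadjusted p under 0.05, 0 passed adjustment, and Lcn2 turned to 0.031. The depth limits Spic, and the fold changes of the 10 genes are small beside those the simulation recovered.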
